A study of Mus musculus with 4 samples.

Results

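The 44 protein-coding mouse genes whose symbols follow the pattern of Col, a type number, the letter a and a chain number were taken as the collagen genes, out of 52636 gene identifiers in the count files. They were sorted by class into 11 fibrillar genes, 8 basement membrane genes and 25 others. Of the 44 genes, 42 had enough reads to be tested for a difference between the genotypes, and Col10a1 and Col28a1 did not.

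RNA sequencing was carried out on embryonic mouse kidney cells at about E12.5 to E12.75, sorted for the red fluorescent protein tdTomato 48 hours after tamoxifen was begun. The control cells came from Eya1CreER;tdTomato embryos and the Eya1cKO cells from Eya1CreER;Eya1 fl/fl;tdTomato embryos, so that both genotypes carried the CreER allele and the R26-tdTomato reporter and both received tamoxifen. CreER was expressed from the Eya1 locus, and the sorted cells were therefore cells of the Eya1 lineage at the time of recombination rather than a single cell type. Each genotype gave 2 libraries of 5000 cells. Per the labels 6 kidneys for each genotype came from 4 pregnant females (the methods give other numbers), and the methods describe pooled suspensions from which the portions were sorted together, so the p-values below measure only the spread between such portions, which may be technical. Eya1, a transcriptional coactivator needed to keep nephron progenitors, had 6612 and 6420 reads in the control libraries and 377 and 219 reads in the Eya1cKO libraries, a log2 fold change of -3.60 ± 0.18 (SE, n = 2 libraries per genotype), with an adjusted p of 1.9e-04 by edgeR's quasi-likelihood test.

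The Eya1cKO libraries were the shallower ones. Reads assigned to genes numbered 35411905 and 37999342 in the control libraries and 22239293 and 17457452 in the Eya1cKO libraries, and 12.9 to 13.9% of reads in control against 20.9 to 22.7% in Eya1cKO fell outside annotated exons. Reads that did not align made up 6.32 and 6.69% in control and 12.9 and 12.7% in Eya1cKO, and 26486 and 27091 genes had a read in control against 21455 and 20538 in Eya1cKO. These differences in the libraries moved with the genotype, and their part in the collagen results was not tested. A count of 3 reads, taken as the limit of detection, equalled 0.0801 to 0.0859 CPM (the usual read count per gene scaled to library depth) in control and 0.133 to 0.171 CPM in Eya1cKO. These limits cover counting error only. All 7 nephron progenitor markers fell (summed level 1303 to 1313 CPM in control, 223 to 280 CPM in Eya1cKO). That list includes Eya1 itself, whose fall was set by the genotype. Of 7 podocyte markers, 6 rose (879 to 900 CPM against 2773 to 2829 CPM). Among all 19041 genes tested, 5.15% were called higher and 4.41% lower. With the replicate number as a block in the fit, 5 of the 7 nephron progenitor calls were kept, and those of Cited1 (adjusted p = 0.094) and Meox1 (adjusted p = 0.051) were lost. Markers of cells outside the nephron were read too. All 8 endothelial markers rose, as did all 6 adrenal cortex markers (11.4 to 18.7 CPM in control, 653 to 677 CPM in Eya1cKO) and all 6 sympathoadrenal markers (3.24 to 3.37 CPM against 345 to 391 CPM), and the part of the adrenal lists in any collagen result was not tested. The marker calls rested on both control libraries. Without the first or the second of them, none of the calls for endothelium, stroma, smooth muscle, ureteric bud or chondrocytes was kept, 1 of 6 was kept for each adrenal list, 2 or 3 of 6 for podocytes and 4 or 3 of 7 for nephron progenitors. In such bulk libraries, more or fewer cells of a type cannot be told apart from more or less RNA per cell.

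Collagens are secreted or membrane-bound proteins built from polypeptide chains wound into a triple helix. Fibrillar collagens of types I, III and V assemble into the fibres of loose connective tissue, and types II and XI into those of cartilage. Type IV collagen forms the sheet-like network of basement membranes, such as those around the ureteric bud and the developing nephron and in the glomerular filter, while FACIT collagens attach to the surface of fibrils and type VI collagen forms beaded filaments around cells. In the developing kidney stromal, endothelial and epithelial cells all contribute chains.

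Upstream sequences were taken from RefSeq on GRCm38.p6, where 35 of the 44 genes had an entry, giving 38 windows of 250 bases upstream of a start site. The windows of 4 genes are printed because these genes stood for the directions seen below: Col3a1 and Col5a1 rose, Col9a1 fell, and Col11a2 was low in both Eya1cKO libraries without passing the test. All 4 lie on the plus strand, at chr1:45311288-45311537 for Col3a1, chr2:27886175-27886424 for Col5a1, chr1:24177360-24177609 for Col9a1 (the upstream start of the gene) and chr17:34038888-34039137 for Col11a2, and none overlaps an exon annotated in GENCODE M21. Capitals mark matches on either strand to the box with the letters CCAAT, to the TATA element searched as TATAAA and to the GC box searched as GGGCGG, of which no match to a motif overlapped a match to another in these windows.
Col3a1: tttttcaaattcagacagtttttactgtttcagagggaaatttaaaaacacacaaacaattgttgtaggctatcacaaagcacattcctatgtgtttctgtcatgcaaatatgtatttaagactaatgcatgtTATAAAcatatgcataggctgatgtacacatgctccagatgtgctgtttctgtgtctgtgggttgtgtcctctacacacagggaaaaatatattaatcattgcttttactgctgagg
Col5a1: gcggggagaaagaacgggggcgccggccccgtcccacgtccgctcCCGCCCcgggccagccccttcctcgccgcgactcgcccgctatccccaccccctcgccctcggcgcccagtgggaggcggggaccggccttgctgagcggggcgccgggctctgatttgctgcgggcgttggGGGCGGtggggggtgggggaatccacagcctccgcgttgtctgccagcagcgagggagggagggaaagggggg
Col9a1: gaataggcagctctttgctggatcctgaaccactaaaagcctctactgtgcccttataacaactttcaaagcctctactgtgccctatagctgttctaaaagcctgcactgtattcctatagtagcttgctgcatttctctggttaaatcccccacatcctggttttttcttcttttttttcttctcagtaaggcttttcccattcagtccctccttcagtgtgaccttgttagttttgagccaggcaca
Col11a2: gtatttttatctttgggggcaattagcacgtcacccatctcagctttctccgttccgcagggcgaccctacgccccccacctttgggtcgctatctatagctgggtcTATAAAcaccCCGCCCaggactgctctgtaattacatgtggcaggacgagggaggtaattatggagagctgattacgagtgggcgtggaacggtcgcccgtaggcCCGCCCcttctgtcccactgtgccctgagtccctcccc
The Col3a1 window was poor in G and C (35.2%) and held a TATAAA match, whereas the Col5a1 window was rich in G and C (76.4%) and held 2 GGGCGG matches. The Col9a1 window held none of the 3 motifs, and the Col11a2 window held a TATAAA match and 2 GGGCGG matches. The windows of Col3a1 and Col5a1, fibrillar genes that both rose, were thus unlike. Over all 38 collagen windows, CCAAT occurred in 34.2% against 33.8% of the 32851 windows of all genes, TATAAA in 13.2% against 12.4%, and GGGCGG in 57.9% against 32.7%. These shares describe letters only, and no binding was measured here.

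Collagen transcripts made up a larger part of the Eya1cKO libraries. They took 0.769% and 0.77% of gene counts in the control libraries and 1.55% and 1.57% in the Eya1cKO libraries, or 7801 and 7810 CPM against 15221 and 15599 CPM. Both Eya1cKO libraries therefore stood well above both controls, and libraries of a genotype differed little. With 2 libraries per genotype an exact two-sided permutation test of such a total cannot go below p = 0.333, so no p-value is attached to it.

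**Figure D1:**
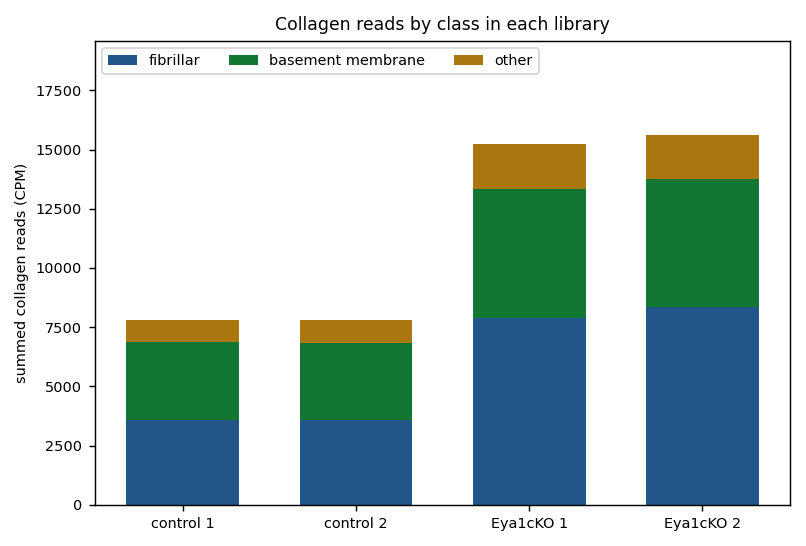
Summed level of collagen transcripts in each library in CPM (linear axis from 0), with the bars divided into fibrillar, basement membrane and other collagen genes. The bars reach 7801 and 7810 CPM in the control libraries and 15221 and 15599 CPM in the Eya1cKO libraries, and the fibrillar part is the largest in all 4 libraries.

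The fibrillar share was higher in Eya1cKO and the basement membrane share lower. Fibrillar genes held 45.9% and 45.7% of collagen reads in control and 51.7% and 53.6% in Eya1cKO, and basement membrane genes held 42.0% and 41.6% in control and 36.0% and 34.6% in Eya1cKO. The other genes kept close to the same share, at 12.2% and 12.7% in control and 12.3% and 11.8% in Eya1cKO, so that the shares of the first 2 classes did not overlap between genotypes while those of the third did. In CPM all 3 classes were higher, and the basement membrane genes summed to 3275 and 3249 CPM in control against 5477 and 5398 CPM in Eya1cKO.

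Tested gene by gene, 21 of the 42 collagen genes rose in Eya1cKO, 2 fell and 19 did not pass an adjusted p of 0.05 by edgeR's quasi-likelihood test. Over all 19041 genes tested, 5.15% were called higher, 4.41% lower and 9.56% in either direction. The median log2 fold change of the 42 collagen genes was 0.90, beside 0.02 for all genes tested. Both Eya1cKO libraries lay above both control libraries for 27 collagen genes and below them for 7, and the groups overlapped for 8. Among all genes tested, 25.3% lay above in both Eya1cKO libraries and 30.0% below. Fitted without either control library, when the spread rested on the Eya1cKO pair alone, 4 of the 23 collagen calls were kept (Col1a1, Col1a2, Col3a1 and Col4a1) and 23 genes were called in all, whereas all 23 collagen calls were kept without the first or the second Eya1cKO library, fits that called 7414 and 7925 genes in all.

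**Figure D2:**
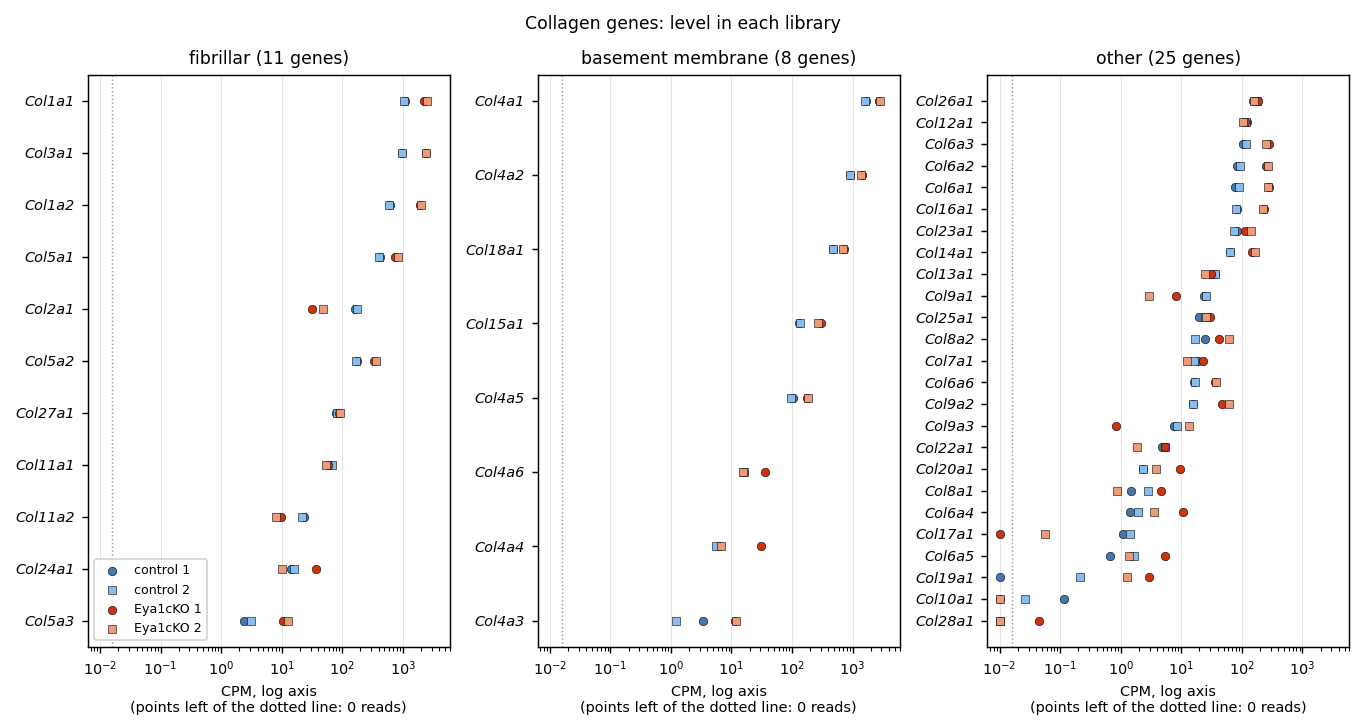
Level of each of the 44 collagen genes in each library (CPM on a log axis, with genes at 0 reads drawn left of the dotted line), by class and ordered by control level; circles and squares are the first and second library of a genotype, blue for control and red for Eya1cKO. The abundant genes show tight pairs with Eya1cKO to the right, such as Col1a2 near 604 CPM in control and 1959 CPM in Eya1cKO, while Col4a4, Col24a1 and Col9a3 have Eya1cKO libraries far apart.

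Per length, the order of the abundant genes changed between genotypes. Levels were compared as CPM per kilobase of the principal coding transcript. Col4a1 came first in control, at 246 ± 2.71 (SD, n = 2) CPM per kilobase, followed by Col1a1 at 180 ± 1.32, Col3a1 at 173 ± 0.29, Col4a2 at 140 ± 0.253 and Col1a2 at 113 ± 0.517. In Eya1cKO, Col3a1 stood at 435 ± 2.4, Col4a1 at 421 ± 8.93, Col1a1 at 399 ± 30.6, Col1a2 at 366 ± 16.7 and Col4a2 at 219 ± 5.65 CPM per kilobase. In Eya1cKO the library values of Col1a1 overlapped those of Col4a1 and those of Col1a2, whereas neighbours among these 5 genes in control were further apart than their SDs. By merged exonic length, which for Col1a2 spans 12426 bases against 5348 in the principal transcript, Col4a1 stayed first in both genotypes and Col1a2 was 6th in control and 5th in Eya1cKO. The 5 genes with the most reads took 66.4% and 65.8% of collagen reads in control and 70.6% and 71.4% in Eya1cKO.

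Of the 11 fibrillar genes, 6 rose, 1 fell and 4 did not pass the test, with a median log2 fold change of 0.94. The genes that rose were those of types I, III and V. Col1a1 (chr11:94936224-94953042, mm10) encodes the more abundant chain of type I collagen, the main protein of connective tissue fibres. The control libraries held 37471 and 39763 of its reads and the Eya1cKO libraries 50581 and 43771, or 1073, 1062, 2238 and 2495 CPM. Its level was 2.22-fold higher, with a log2 fold change of 1.15 ± 0.06 (SE) and an adjusted p of 2.8e-04 by edgeR's quasi-likelihood test. Col1a2 (chr6:4504814-4541544) encodes the partner chain. Reads for it numbered 21164 and 22547 in control and 42837 and 35466 in Eya1cKO, or 606, 602, 1896 and 2022 CPM. The rise was 3.24-fold, with a log2 fold change of 1.70 ± 0.06 and an adjusted p of 5.5e-05 in the same test. Even before scaling for depth, both of the shallower Eya1cKO libraries held more Col1a1 and Col1a2 reads than either control.

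Col3a1, whose product joins type I collagen in thin fibres of soft organs and vessel walls, had 33687 and 36036 reads in control against 54935 and 42317 in Eya1cKO, or 965, 962, 2431 and 2412 CPM. It rose 2.51-fold (log2 fold change 1.33 ± 0.05, adjusted p = 5.5e-05 by edgeR's quasi-likelihood test). Type V collagen nucleates and limits the width of type I fibrils, and all 3 of its genes rose. Col5a1 had 414 and 406 CPM in control and 741 and 836 CPM in Eya1cKO, a log2 fold change of 0.94 ± 0.08 (adjusted p = 0.0013, edgeR). Col5a2, which lies beside Col3a1 on chromosome 1, had 173 and 168 CPM against 330 and 361 CPM, a log2 fold change of 1.02 ± 0.09 (adjusted p = 0.0014, edgeR). Groups did not overlap for any of these genes. Col5a3 was far lower in reads, with 84 and 116 in control and 240 and 223 in Eya1cKO, and its log2 fold change of 2.06 ± 0.50 stood just inside the threshold (adjusted p = 0.047, edgeR). That call was lost without the low-count filter, by edgeR's legacy method, with a replicate block and with the controls thinned to the depth of Eya1cKO.

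Col2a1 was the fibrillar gene that fell. It encodes the only chain of type II collagen, the main collagen of cartilage, which is also transcribed in several embryonic epithelia and mesenchymes. Control libraries held 5788 and 6603 of its reads and Eya1cKO libraries 717 and 857, or 166, 176, 31.7 and 48.9 CPM. The level was 4.34-fold lower in Eya1cKO (log2 fold change -2.12 ± 0.18, adjusted p = 0.0014 by edgeR's quasi-likelihood test), and its share of collagen reads went from 2.12 and 2.26% in control to 0.208 and 0.313% in Eya1cKO. Col11a2, a chain of the type XI collagen that copolymerises with type II, was measured at 23.3 and 21.7 CPM in control and 9.91 and 8.09 CPM in Eya1cKO. Both Eya1cKO libraries were below both controls, but the log2 fold change of -1.30 ± 0.32 missed the threshold (adjusted p = 0.052, edgeR). It passed where at least 10 counts were asked of every library, by robust quasi-likelihood and by DESeq2. Col11a1, the partner chain, lay at 63.2 and 67.8 CPM against 59.3 and 54.4 CPM (log2 fold change -0.20 ± 0.15, adjusted p = 0.42, edgeR).

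The remaining fibrillar genes gave no call. Col27a1, a fibrillar gene active in cartilage and other embryonic tissues, had 79.1 and 83 CPM in control and 88.9 and 93.3 CPM in Eya1cKO, a log2 fold change of 0.17 ± 0.12 (adjusted p = 0.42, edgeR). For Col24a1 the Eya1cKO libraries disagreed, with 837 and 176 reads beside 494 and 589 in control, and the fitted log2 fold change of 0.74 became -0.59 without the first Eya1cKO library.

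**Figure D3:**
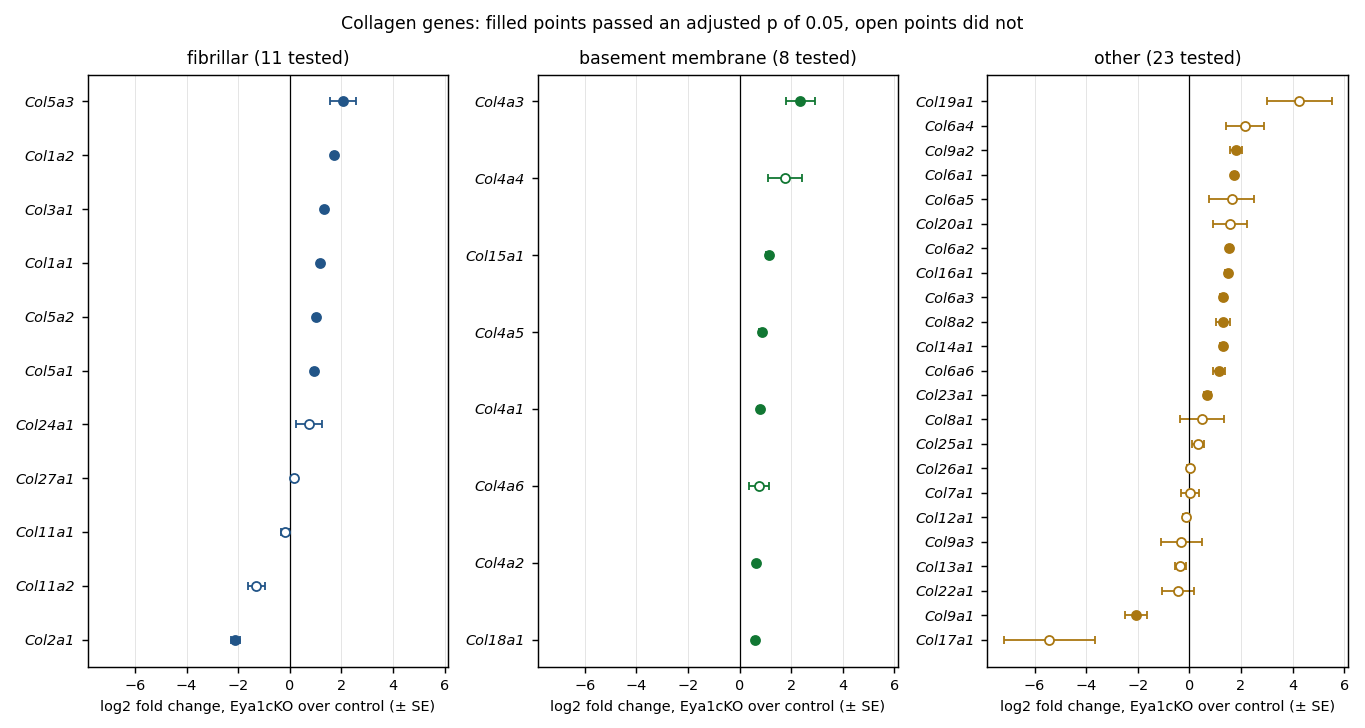
Log2 fold change of the 42 tested collagen genes, Eya1cKO over control, with the standard error of the fit (n = 2 libraries per genotype), by class and ordered by value; filled points passed an adjusted p of 0.05 over all genes tested and open points did not. Filled points sit right of 0 for 21 genes and left of it for Col2a1 and Col9a1, and the widest bars belong to Col17a1 and Col19a1, which have few reads.

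Markers of cells that could supply or lack these transcripts were read beside them. In the list for renal stroma, 3 of 7 genes rose, 1 fell and the summed level was 963 to 972 CPM in control and 1211 to 1236 CPM in Eya1cKO. Pdgfrb rose (140 and 153 CPM against 280 and 271 CPM), Foxd1 rose by a log2 fold change of 0.51 ± 0.11, Pdgfra had 182 and 175 against 253 and 199 CPM without passing the test, and Tbx18 fell. The calls of Foxd1 and Tbx18 were lost without the low-count filter, by the legacy method, with thinned controls and with a replicate block, which lost that of Tcf21 too, and that of Tbx18 also with library totals. Among smooth muscle and pericyte markers, 2 of 6 rose (Acta2 and Cspg4) and the other 4 did not pass the test. Of those 4, Rgs5 was above control in both Eya1cKO libraries and 3 contractile genes were below it, Myh11 with 5.7 and 4.01 CPM against 3.27 and 2.45 CPM, Tagln with 1.03 and 0.614 CPM against 0.487 and 0.285 CPM, and Cnn1 with 14 and 20 reads against 0 in both. The median log2 fold change of the list was -0.16, while its sum, most of it from Cspg4, Rgs5 and Acta2, went from 155 to 160 CPM in control to 245 to 263 CPM in Eya1cKO. The block lost the calls of both Acta2 and Cspg4, and the filter, legacy and thinning settings that of Acta2. Of the 6 chondrocyte markers, 4 were tested. Sox9, a regulator of Col2a1 in cartilage that is also active in kidney epithelia, fell from 74 and 73.7 CPM to 38.1 and 29.6 CPM, and Acan rose from 9 and 20 reads to 100 and 142 reads. The call of Sox9 was lost with a replicate block, and that of Acan without the low-count filter and by the legacy method. Acan was not tested where 10 counts were asked of every library. Hapln1 had 38.1 and 33.7 CPM in control and 64.1 and 33.7 CPM in Eya1cKO and was not called, nor was Comp, with 19 and 1 reads against 12 and 0. Matn1 (8 and 50 reads in control) and Matn3 (25 and 12 reads) had 0 reads in both Eya1cKO libraries and were not tested. Together the chondrocyte list summed to 110 to 114 CPM in control and 71.4 to 107 CPM in Eya1cKO. The part of these cell types in the fibrillar results was not tested.

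Of the 8 basement membrane genes, 6 rose, none fell and 2 did not pass the test, and the median log2 fold change was 0.81. Counting type IV genes alone as basement membrane, 4 of 6 rose. Col4a1 and Col4a2 encode the chains of the type IV network found in nearly every basement membrane, and start head to head on opposite strands of chromosome 8 with 22 bases of overlap. Col4a1 was the collagen gene with the most reads in all 4 libraries, at 57254 and 60443 in control and 61958 and 49566 in Eya1cKO, or 1640, 1614, 2742 and 2825 CPM. Its log2 fold change was 0.77 ± 0.05 (1.71-fold, adjusted p = 3.8e-04 by edgeR's quasi-likelihood test). Col4a2 had 899 and 902 CPM in control and 1439 and 1388 CPM in Eya1cKO, a log2 fold change of 0.65 ± 0.05 (1.57-fold, adjusted p = 0.0013, edgeR). Both values were below those of Col1a1, Col1a2 and Col3a1, a difference between genes that was not itself tested.

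The genes of the tissue-restricted type IV networks were more uneven. Col4a3, Col4a4 and Col4a5 together form the network of the mature glomerular basement membrane, and mutations in them cause Alport syndrome. Col4a3 had 117 and 46 reads in control and 255 and 206 reads in Eya1cKO, a log2 fold change of 2.35 ± 0.57 at the edge of the threshold (adjusted p = 0.049, edgeR), and the value ranged from 1.76 to 3.20 when a library was left out. The call was lost without the low-count filter, by the legacy method, with a replicate block and with thinned controls, and 5.65% of its exonic bases are shared with a transcript on the opposite strand. Col4a4, its neighbour on chromosome 1, had 217 and 211 reads in control and 700 and 117 in Eya1cKO, or 6.21, 5.64, 31 and 6.67 CPM. Both Eya1cKO libraries lay above both controls but stood on unlike levels (log2 fold change 1.77 ± 0.66, adjusted p = 0.14, edgeR). Without the first Eya1cKO library that value fell to 0.16.

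Col4a5, on the X chromosome, was measured at 103 and 97.8 CPM in control and at 180 and 183 CPM in Eya1cKO, a log2 fold change of 0.85 ± 0.10 (adjusted p = 0.0046, edgeR). Its neighbour Col4a6 had 560 and 597 reads in control and 819 and 268 in Eya1cKO, with a log2 fold change of 0.75 ± 0.39 that did not pass (adjusted p = 0.26, edgeR). Col15a1 and Col18a1 encode multiplexin collagens of vascular and epithelial basement membranes, and Col18a1 is the source of endostatin, a fragment that restrains vessel growth. Col15a1 rose from 129 and 136 CPM to 304 and 269 CPM (log2 fold change 1.12 ± 0.10, adjusted p = 0.0016, edgeR). Col18a1 rose from 478 and 476 CPM to 734 and 699 CPM, by a log2 fold change of 0.59 ± 0.06, the smallest among the called collagens (adjusted p = 0.0033, edgeR).

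Endothelial and podocyte markers moved in the same direction as these genes. All 8 endothelial markers rose, from a summed 626 and 649 CPM in control to 1169 and 1208 CPM in Eya1cKO, and Cdh5, the cadherin of endothelial junctions, went from 167 and 158 CPM to 262 and 314 CPM. Of the 8 endothelial calls, those of Pecam1 and Tek were lost without the low-count filter, by the legacy method, with thinned controls and with the block, and that of Pecam1 also with the robust fit. The podocyte gene Nphs1, which encodes nephrin of the slit diaphragm, went from 22.3 and 22.8 CPM to 149 and 136 CPM. Ureteric bud markers, the other epithelium at this stage, summed to 230 to 231 CPM in control and 155 to 167 CPM in Eya1cKO, with 1 of 7 higher (Cdh16) and 2 lower (Ret and Calb1). The block lost the calls of Ret and Cdh16 and left that of Calb1, and the call of Cdh16 was also lost without the low-count filter. All libraries came from a sort for tdTomato-positive cells of the Eya1 lineage, a gate meant to leave out cells of other lineages. The purity of that sort was not tested here. The part of these cell types in the basement membrane result was not tested.

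Of the 25 other genes, 23 were tested, 9 rose, 1 fell and 13 did not pass the test, with a median log2 fold change of 1.16. Type VI collagen, the beaded filament that links cells to the surrounding matrix, is encoded by 6 of these genes, of which 4 rose, with a median log2 fold change of 1.59. Col6a1 had 2744 and 3349 reads in control and 6458 and 4794 in Eya1cKO, or 78.6, 89.4, 286 and 273 CPM (log2 fold change 1.73 ± 0.10, 3.33-fold, adjusted p = 3.9e-04 by edgeR's quasi-likelihood test). Its neighbour on chromosome 10, Col6a2, had 84 and 92.9 CPM in control and 248 and 272 CPM in Eya1cKO (log2 fold change 1.55 ± 0.11, adjusted p = 6.8e-04, edgeR). Col6a3, which encodes the longest chain of the filament, had 103 and 116 CPM against 286 and 252 CPM (log2 fold change 1.30 ± 0.11, adjusted p = 0.0015, edgeR). These 3 genes, whose chains assemble into a common trimer, were separated between genotypes in every library.

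Col6a4, Col6a5 and Col6a6 encode chains related to that of Col6a3 and lie together on chromosome 9. Col6a6 rose from 16.1 and 16.6 CPM to 36 and 37.3 CPM (log2 fold change 1.16 ± 0.23, adjusted p = 0.025, edgeR), a call lost with a replicate block. Col6a4 had 50 and 73 reads in control and 244 and 61 in Eya1cKO, and Col6a5 had 23 and 63 against 124 and 24. Scaled for depth, Col6a4 stood at 1.43 and 1.95 CPM in control and 10.8 and 3.48 CPM in Eya1cKO, both above the controls, and Col6a5 at 0.659 and 1.68 against 5.49 and 1.37 CPM, with overlapping groups. In both genes the first Eya1cKO library was the higher one, and neither passed the test.

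Of the 9 FACIT genes, 3 rose, 1 fell and 5 did not pass. Col14a1, which binds the surface of type I fibrils, rose from 63.8 and 64.3 CPM to 148 and 165 CPM (log2 fold change 1.29 ± 0.12, adjusted p = 0.0019, edgeR). Col16a1, found near fibrils and basement membranes, rose from 83.6 and 81.2 CPM to 232 and 228 CPM (log2 fold change 1.48 ± 0.10, adjusted p = 5.7e-04, edgeR). Col12a1, another partner of type I fibrils, was not called, at 123 and 119 CPM in control and 114 and 104 CPM in Eya1cKO (log2 fold change -0.15 ± 0.11, adjusted p = 0.43, edgeR).

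The 3 genes of type IX collagen, which coats type II fibrils in cartilage as a trimer of different chains, did not move together. Col9a1 fell from 842 and 957 reads to 186 and 51 reads, or from 24.1 and 25.6 CPM to 8.23 and 2.91 CPM (log2 fold change -2.08 ± 0.42, adjusted p = 0.028, edgeR). The Eya1cKO libraries stood on unlike levels, and the value was -3.11 without the first of them and -1.61 without the second. The call was lost without the low-count filter, by the legacy method and with a replicate block. Col9a2 rose from 539 and 581 reads to 1067 and 1080 reads, or from 15.4 and 15.5 CPM to 47.2 and 61.6 CPM (log2 fold change 1.79 ± 0.23, adjusted p = 0.0065, edgeR). Neither gene overlapped between genotypes, and their directions were opposite. Col9a3 had 265 and 314 reads in control and 19 and 239 in Eya1cKO, and its groups overlapped (log2 fold change -0.31 ± 0.81, adjusted p = 0.84, edgeR).

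Rarer FACIT genes rested on few reads. Col19a1 had 0 and 8 reads in control and 66 and 22 in Eya1cKO (adjusted p = 0.078, edgeR), with both Eya1cKO libraries above both controls. Col20a1 had 82 and 87 reads against 214 and 68. Scaled for depth these were 2.35 and 2.32 CPM against 9.47 and 3.88 CPM, both Eya1cKO libraries above both controls. Col22a1, a collagen of tissue junctions, had 170 and 204 reads against 121 and 33, with overlapping groups in CPM. Neither passed the test.

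Among network, transmembrane and remaining genes, 2 rose. Col8a2, a chain of the hexagonal network in the membrane beneath the corneal endothelium and in vessel walls, had 25 and 17.1 CPM in control and 42.5 and 62.2 CPM in Eya1cKO (log2 fold change 1.30 ± 0.28, adjusted p = 0.035, edgeR). Its partner Col8a1 had 51 and 104 reads against 106 and 15, a log2 fold change of 0.49 that turned to -1.33 without the first Eya1cKO library. Col23a1, a transmembrane collagen, had 83.2 and 73.6 CPM against 115 and 140 CPM (log2 fold change 0.69 ± 0.14, adjusted p = 0.03, edgeR). The calls of Col8a2 and Col23a1 were lost without the low-count filter, by the legacy method, with a replicate block and with thinned controls.

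The transmembrane genes Col13a1 and Col25a1 were not called, at 35.6 and 36.5 CPM against 30.5 and 25 CPM for Col13a1 and at 20 and 24.3 CPM against 29.6 and 26 CPM for Col25a1. Col17a1, the hemidesmosomal collagen of stratified epithelia, had 38 and 53 reads in control and 0 and 1 in Eya1cKO. Pooled by genotype and scaled for depth, the ratio of Eya1cKO to control was 0.0198 (exact Clopper-Pearson 95% interval 0.000496 to 0.113, counting error only), yet the test did not call it (adjusted p = 0.11, edgeR). Col7a1, which forms the anchoring fibrils of skin, had 19 and 16.4 CPM against 22.6 and 12.3 CPM, and Col26a1 had 154 and 181 CPM against 184 and 158 CPM, both with overlapping groups and a log2 fold change of 0.03. Col10a1, the collagen of hypertrophic cartilage, had 4 and 1 reads in control and 0 in both Eya1cKO libraries, and Col28a1 had 1 read in all 4 libraries together.

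Chains that assemble together or share a type were compared within each library, where depth and scaling drop out. Reads for Col1a2 stood at 0.565 and 0.567 of those for Col1a1 in control and at 0.847 and 0.81 in Eya1cKO. Per kilobase of the principal transcript, a length chosen after the values were seen, the same ratio was 0.626 and 0.629 against 0.939 and 0.898. This correction multiplies every library by the same factor, so it changes the level of the ratio and not its order. The ratio of Col3a1 to Col1a1 was 0.899 and 0.906 in control and 1.09 and 0.967 in Eya1cKO.

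Shifts of the other pairs ranged widely. Col4a2 to Col4a1 gave 0.549 and 0.559 in control against 0.525 and 0.491 in Eya1cKO, and Col5a2 to Col5a1 gave 0.417 and 0.415 against 0.446 and 0.431. Col6a3 to Col6a1 fell in reads from 1.31 and 1.3 to 0.999 and 0.922, and Col6a2 to Col6a1 from 1.07 and 1.04 to 0.868 and 0.996. Among pairs without overlap between genotypes, the widest shift was that of Col9a2 to Col9a1, from 0.64 and 0.607 to 5.74 and 21.2. It was followed by Col11a2 to Col11a1, from 0.368 and 0.32 to 0.167 and 0.149. The ratios of Col4a4 to Col4a3 and of Col4a6 to Col4a5 overlapped between genotypes. No test is attached to ratios of 2 libraries against 2.

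**Figure D4:**
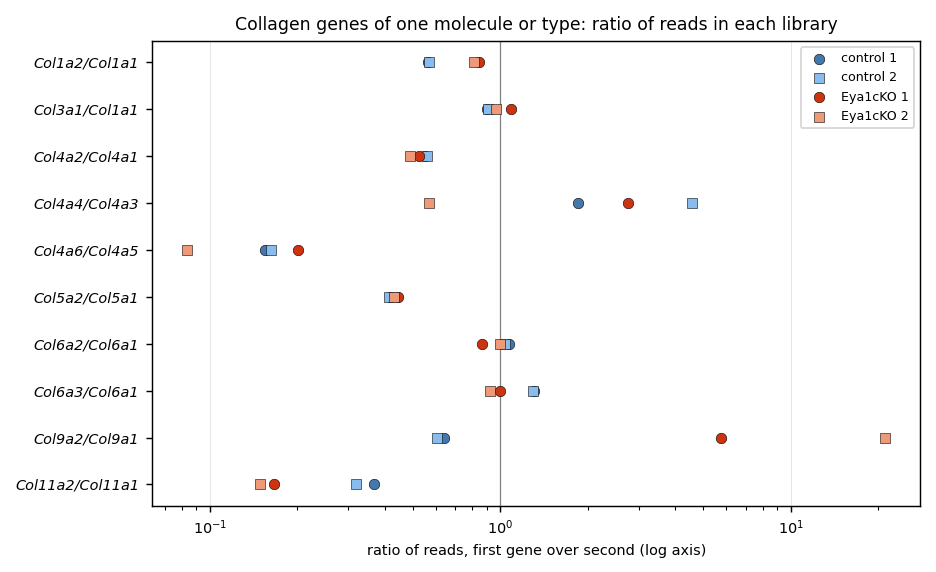
Ratio of reads between collagen genes of a common molecule or type in each library (log axis, no length correction); blue points are control and red points Eya1cKO libraries, and the vertical line marks equal reads. Col9a2/Col9a1 moves from 0.64 and 0.607 in control to 5.74 and 21.2 in Eya1cKO, while Col4a2/Col4a1 and Col5a2/Col5a1 stay within a narrow range.

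Genes that modify, process, crosslink or bind collagen were examined as 3 lists. Of 31 genes for biosynthesis and crosslinking, 10 rose, none fell and 21 did not pass, with a median log2 fold change of 0.42 beside 0.02 for all genes tested. The shares called over all genes tested, to set beside all 3 lists, were 5.15% higher and 4.41% lower. The called genes were Plod1 and Plod2 (lysyl hydroxylases), P3h1 and P3h2 (prolyl 3-hydroxylases), Bmp1 and Adamts2 (proteinases that trim the C- and N-terminal propeptides), Pcolce (an enhancer of Bmp1) and Lox, Loxl1 and Loxl2 (lysyl oxidases that start crosslinks). Lox rose from 1001 and 980 reads to 1808 and 2032 reads, a log2 fold change of 1.82 ± 0.22 (adjusted p = 0.0052, edgeR). P3h1 rose by a log2 fold change of 0.95 ± 0.12, Loxl1 by 0.82 ± 0.14 and Bmp1 by 0.68 ± 0.12. Pcolce rose from 1372 and 1681 reads to 2259 and 1758 reads (log2 fold change 1.25 ± 0.14, adjusted p = 0.0041, edgeR), and P3h2, an enzyme that acts on basement membrane collagens, from 779 and 586 to 1943 and 1064 reads (log2 fold change 1.98 ± 0.26, adjusted p = 0.0066, edgeR). With a replicate block 5 of the 10 calls were kept (P3h1, P3h2, Bmp1, Pcolce and Lox). Those of Plod1, Plod2 and Loxl2 were also lost without the low-count filter, by the legacy method and with thinned controls, that of Plod1 by robust quasi-likelihood too, and all 10 without either control library.

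Among the 21 genes without a call were the subunits of prolyl 4-hydroxylase, which stabilises the triple helix, and the chaperone Serpinh1. Serpinh1 had 34568 and 37920 reads in control and 25253 and 19729 in Eya1cKO, or 990, 1013, 1118 and 1125 CPM. Its log2 fold change was 0.16 ± 0.05 (adjusted p = 0.1, edgeR). P4hb was at 0.14 ± 0.07, P4ha1 at -0.17 ± 0.17, P4ha2 at 0.63 ± 0.27 and P4ha3 at 1.02 ± 0.35 on the log2 scale. Serpinh1, P4hb, P4ha2 and P4ha3 lay above the controls in both Eya1cKO libraries, and P4ha1 overlapped them. In the list of 31, 21 genes lay above the controls in both Eya1cKO libraries, against 25.3% of all genes tested, and 3 lay below, against 30.0%. None of the 3 was called, and relatives of called genes were among them. Loxl4, a lysyl oxidase, had 7.65 and 7.91 CPM in control and 2.43 and 0.912 CPM in Eya1cKO (log2 fold change -2.13 ± 0.65, adjusted p = 0.089, edgeR, called in 2 of 9 alternatives). Pcolce2 had 2.61 and 3.18 CPM against 0.133 and 1.08 CPM (-2.39 ± 0.99, adjusted p = 0.15, edgeR).

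Of 7 fibril-associated proteoglycans and glycoproteins, 5 rose, none fell and 2 did not pass, with a median log2 fold change of 0.98. Dcn, which encodes decorin, a small proteoglycan on type I fibrils, rose from 755 and 985 reads to 2316 and 2052 reads (log2 fold change 2.18 ± 0.17, adjusted p = 0.0011, edgeR). Sparc, a collagen-binding glycoprotein, rose from 544 and 562 CPM to 1084 and 1023 CPM (log2 fold change 0.93 ± 0.06, adjusted p = 5.9e-04, edgeR). Bgn (0.98 ± 0.15 on the log2 scale), Lum (1.42 ± 0.30) and Fbn1 (0.67 ± 0.08) also rose, while Fn1, fibronectin, with the most reads of the list, stood at 0.17 ± 0.05 without a call. The block kept 3 of the 5 calls, losing Bgn and Lum, the latter lost also without the filter, by the legacy method and with thinned controls, and none was kept without either control library.

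Of 10 receptors, 9 were tested, 3 rose and none fell, with a median log2 fold change of 0.66. The called genes were the integrin subunits Itga1 (0.85 ± 0.17, adjusted p = 0.027, edgeR) and Itga2 (1.22 ± 0.23, adjusted p = 0.023, edgeR) and the kinase receptor Ddr2 (0.66 ± 0.15, adjusted p = 0.042, edgeR), which binds fibrillar collagen. None of these calls was kept with a replicate block or without either control library, those of Itga1 and Ddr2 were lost without the low-count filter and by the legacy method, and that of Ddr2 also with thinned controls. The shared integrin subunit Itgb1 (0.28 ± 0.10) and the endocytic receptor Mrc2 (0.25 ± 0.09) were not called. Itga11, also not called, had 3.75 and 5.05 CPM in control but 7.21 and 25.8 CPM in Eya1cKO, and its log2 fold change of 1.80 ± 0.68 ranged from 0.69 to 2.53 when a library was left out, and the platelet receptor Gp6 had 0 reads in all libraries.

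**Figure D5:**
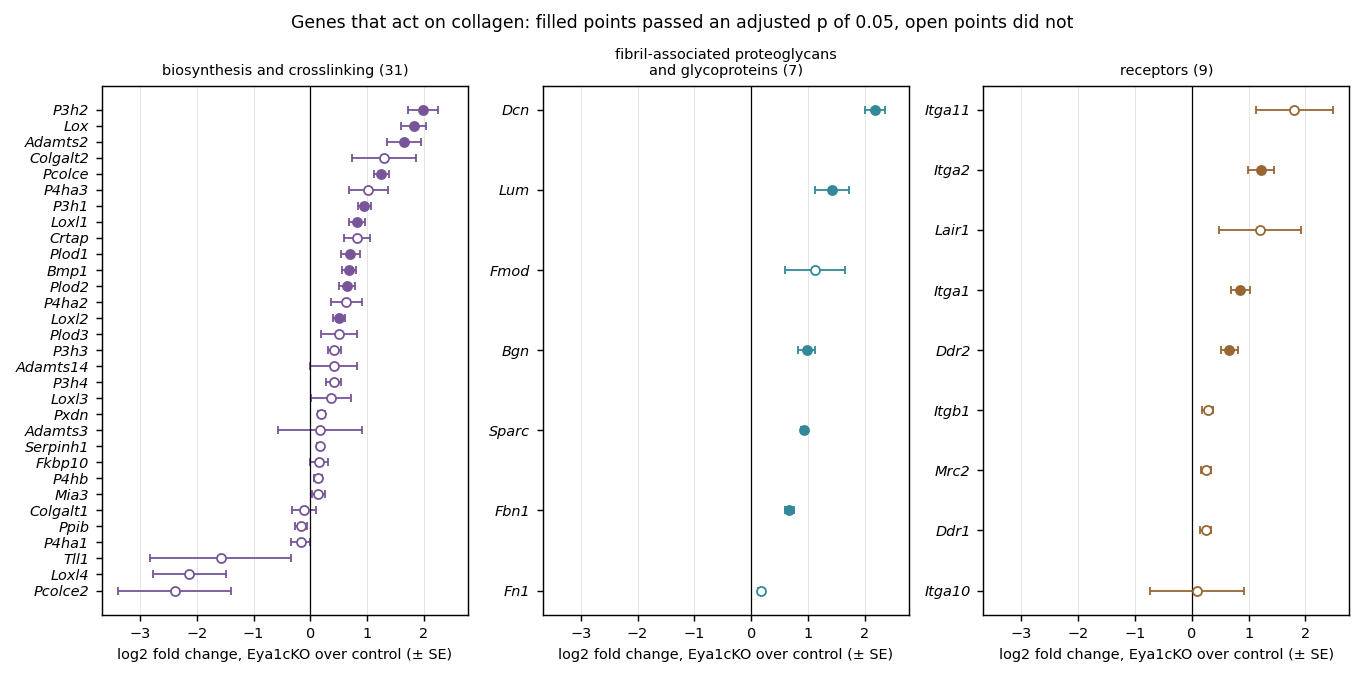
Log2 fold change of genes that act on or bind collagen, Eya1cKO over control, with the standard error of the fit (n = 2 libraries per genotype), in 3 lists; filled points passed an adjusted p of 0.05 over all genes tested and open points did not. All filled points lie right of 0, with Dcn at 2.18, P3h2 at 1.98 and Lox at 1.82, while Serpinh1 and Fn1 stay near 0.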

How the data were processed

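Single-end RNA-seq reads of 4 libraries (2 control, 2 Eya1cKO, 5000 sorted cells each) were, per the labels and the study's methods, prepared with a strand-specific kit, aligned to mm10 with HISAT2 and counted per Ensembl gene with HTSeq. The deposited values are raw read counts per gene, without normalization, and whether HTSeq used strand is not given in the sources used here. Rows without a gene (no feature 12.9 to 13.9% of reads in control and 20.9 to 22.7% in Eya1cKO, unaligned 6.32 to 6.69% and 12.7 to 12.9%) were left out of library sizes.

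Counts were fitted in edgeR 4.0.16 (R 4.3.3) with TMM scaling (factors 0.987 to 1.02), the filterByExpr filter (minimum count 10) and the quasi-likelihood test, genotype as the only term, with Benjamini-Hochberg adjustment over 19041 genes and a threshold of 0.05. A standard error was the log2 fold change divided by the square root of F. CPM were scaled by TMM, and levels between genes used CPM per kilobase of transcript from GENCODE M21. The fit was tested on simulated data. Alternatives covered scaling, filters, DESeq2 1.42.0, robust and legacy edgeR, a replicate block, left-out libraries, thinned controls, the class definition and transcript length.

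The genes, classes and lists were chosen with earlier results of these data known. All collagen genes are accounted for. From the partner lists, called genes are named, with values for at most 6 of each list by smallest p, and Serpinh1, the prolyl 4-hydroxylase subunits, Loxl4 and Pcolce2 are named besides, chosen after their values were seen. Of each of 13 marker lists the summary was computed. Those not given in the text gave 1 of 3 tested genes higher for Schwann cell precursors (26 to 27.5 CPM in control, 28.6 to 32.1 CPM in Eya1cKO), 0 of 5 called for macrophages (94 to 103 CPM, 96.3 to 127 CPM), 0 of 1 tested for skeletal muscle and none tested for erythroid cells. The Schwann cell precursor gene was Sox10, with 0 and 5 reads in control and 83 and 75 in Eya1cKO. Its call was lost without the low-count filter, by the legacy method, with the replicate block and with thinned controls. Sox10 was not tested where 10 counts were asked of every library.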

Additional observations from a re-analysis of the deposited data

How the results depend on the processing

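Of the 23 collagen calls, 23 were kept with DESeq2's size factors, with library totals, with at least 10 counts in every library, by DESeq2's Wald test and by robust quasi-likelihood, 19 with thinned controls and 18 without the low-count filter or by edgeR's legacy method. Over all genes the calls higher and lower were 548 and 507 without the filter, 1815 and 1298 by DESeq2, 581 and 515 by the legacy method and 628 and 599 with thinned controls against 981 and 839. Library totals put 59.3% of calls higher, against 53.9%.

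Deviations of same-numbered libraries were nearly uncorrelated over all genes tested (r = 0.006057). A single r over all genes cannot tell of a batch that touched only some of them. Whether the numbers pair the libraries is not given in the sources used here. With the replicate number as a block, 358 genes were called higher and 263 lower, 17 of the 23 collagen calls were kept, and collagens called lower numbered 1. Collagens called lower also numbered 1 without the filter and by the legacy method, with 0 in the other class in all 3 of these fits, whereas 2 fibrillar genes were called lower with 10 counts in every library, by DESeq2 and by robust quasi-likelihood, Col11a2 being the addition.

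Leaving out 1 library at a time gave 15 to 4443 genes higher and 7 to 3482 lower, 4 to 28 collagens higher and 0 to 4 lower. By class, 3 to 7 fibrillar, 1 to 8 basement membrane and 0 to 13 other genes were higher and 0 to 2 fibrillar and 0 to 2 other genes lower. The lone remaining library is then assumed to vary like the pair of the other genotype. Directions turned for 7 uncalled genes, whose log2 fold changes over the left-out libraries ran from -0.08 to 1.16 for Col4a6, -0.54 to 0.34 for Col7a1, -1.33 to 1.11 for Col8a1, -3.26 to 0.76 for Col9a3, -1.47 to 0.04 for Col22a1, -0.59 to 1.29 for Col24a1 and -0.10 to 0.14 for Col26a1. For Col7a1 the value was also -0.01 by DESeq2, -0.02 by the legacy method and -0.01 with the block.

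Per kilobase of exonic length the mean shares were 40.9% fibrillar, 45.8% basement membrane and 13.3% other in control and 46.8%, 39.2% and 14% in Eya1cKO, and the ratios, control then Eya1cKO, were 0.299 and 0.438 for Col1a2/Col1a1, 0.624 and 0.573 for Col4a2/Col4a1 and 0.555 and 0.49 for Col6a2/Col6a1. Per kilobase of the principal transcript, chosen after seeing the data, they were 0.628 and 0.919 for Col1a2/Col1a1, 0.568 and 0.521 for Col4a2/Col4a1 and 1.09 and 0.967 for Col6a2/Col6a1. The cause of these changes was not tested. Genes under about 100 reads, such as Col19a1 and Col17a1, lie near what the depth can show.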
